A study of Homo sapiens with 20 samples.

Results

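The genes of the cytosolic ribosomal proteins were followed through ATAC-seq peak lists of a pair of human colon cancer cell lines. Members were the protein-coding genes of the RefSeq table of hg38 whose symbol is RPL or RPS followed by a number, with or without a final A or X, together with RPLP0, RPLP1, RPLP2, RPSA and FAU. The rule found 78 of the 20037 protein-coding genes, 46 of the large and 32 of the small ribosomal subunit. LOVO and RKO are established lines of colon adenocarcinoma cells. In ATAC-seq a transposase cuts accessible DNA and adds sequencing adapters to it, and sites with many cuts are called as peaks. All cells carried a short hairpin RNA, either one against METTL3 (shMETTL3) or a control one (shControl). METTL3 is the methyltransferase that places N6-methyladenosine on messenger and other RNAs. Cells were given olaparib, an inhibitor of the DNA repair enzyme poly(ADP-ribose) polymerase, or were untreated. The 20 samples comprised, in each line, 2 of shMETTL3 with olaparib, 2 of shControl with olaparib, 2 of untreated shMETTL3 and 4 of untreated shControl, 2 of them from a second batch. The labels give neither the hairpin sequence nor the dose or time of olaparib, and do not say whether the cells were a single clone.

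The deposited data were 10 peak lists, 5 per line, each made for a group rather than for a sample. Of these, 6 carry a score for each interval and peak names of replicate 1 (shMETTL3 with olaparib, shControl with olaparib and untreated shControl of each line), and 4 hold intervals only (untreated shMETTL3 and untreated shControl of each line). They are called scored and merged lists here. With 1 list per group there was no replicate spread and no test. Lists of the same form were compared with each other, and the scored and merged lists of untreated shControl gave the only measure of how far 2 lists of 1 group differ. The lists held 6916 intervals (untreated shMETTL3 RKO) to 51462 intervals (shMETTL3 with olaparib LOVO). A gene is called listed when an interval overlapped the 1000 bp on either side of either gene end, and its covered bases are the summed lengths of those intervals. A gene that is not listed is not shown to be closed, since a weaker library gives fewer peaks, and fewer cells with an accessible site cannot be told apart from less access in each cell. Of 10 intestinal epithelial marker genes, 4 to 10 were listed in LOVO and 1 to 5 in RKO, against 0 to 2 of 5 leukocyte and 0 to 3 of 5 mesenchymal markers. All protein-coding genes were listed at 35.8 to 58.5% in LOVO and 25.3 to 55.4% in RKO, so the epithelial markers did not stand out in RKO. CDX1, VIL1, KRT20, CDH1 and HNF4A were in no RKO list. The leukocyte marker SPI1 was in 8 of the 10 lists and the mesenchymal marker ACTA2 in 9.

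Each ribosome holds 1 copy of nearly every ribosomal protein, apart from the stalk proteins, so their genes are transcribed together at high levels in every growing cell. Their promoters are compact, and their transcripts mostly begin with a C followed by a run of pyrimidines, the terminal oligopyrimidine motif through which mTOR signalling controls their translation. Many ribosomal protein genes carry small nucleolar RNAs in their introns and have numerous processed pseudogenes. Colon cancers are known for raised ribosome production, and several ribosomal proteins, RPL5 and RPL11 among them, bind MDM2 and so act on p53 when ribosome assembly fails.

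The members lay on 21 chromosomes, 12 of them on chromosome 19. They were short, with a median length of 4900 bp (1335 to 27723 bp) against 24100 bp over all protein-coding genes, so that the windows at the gene ends held much of each gene. At 30 of the 78 members (38.5%) the end of another protein-coding gene lay within the window, against 28.5% of all genes, and an interval there cannot be assigned to 1 of the pair. Inside 29 members lay 60 small nucleolar RNA genes. The members had 1938 annotated pseudogenes, from 3 for FAU to 135 for RPL21.

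Promoter sequences were available for 63 of the 78 members in a RefSeq table on GRCh38.p14, the assembly that hg38 names. The stretches printed first show a hallmark of these promoters, the pyrimidine run at the start of transcription. Each stretch runs 5′ to 3′ from 40 bases before the annotated start to 20 bases from the start on, and capitals mark the unbroken run of C and T that includes the start base or ends just before it. RPL7A, RPL39, RPLP2 and RPS21 had runs of 25, 22, 17 and 15 bases. RPL38 is shown as the member listed least often, with a run of 9 bases. RPS4X, whose 4 bases end before the start, and RPS28, with none at its annotated start, are shown from among the exceptions.
RPL7A, chr9:133348178-133348237, plus strand: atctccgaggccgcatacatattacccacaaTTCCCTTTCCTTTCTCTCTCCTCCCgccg
RPL39, chrX:119791611-119791670, minus strand: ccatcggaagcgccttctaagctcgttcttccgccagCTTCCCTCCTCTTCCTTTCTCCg
RPLP2, chr11:809927-809986, plus strand: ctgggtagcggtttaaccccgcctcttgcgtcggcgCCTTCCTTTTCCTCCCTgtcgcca
RPS21, chr20:62387063-62387122, plus strand: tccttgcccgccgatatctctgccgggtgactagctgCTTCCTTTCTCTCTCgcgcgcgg
RPL38, chr17:74203638-74203697, plus strand: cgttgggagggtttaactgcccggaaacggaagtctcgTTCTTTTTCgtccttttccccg
RPS4X, chrX:72277229-72277288, minus strand: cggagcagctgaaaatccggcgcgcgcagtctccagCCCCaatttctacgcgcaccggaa
RPS28, chr19:8321456-8321515, plus strand: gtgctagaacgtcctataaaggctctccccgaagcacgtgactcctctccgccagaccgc

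A C at the annotated start followed by at least 4 pyrimidines was present in 43 of the 63 members (68.3%), against 729 of 15843 protein-coding genes in the same table (4.6%). The C alone was at the start of 47 members (74.6%) and of 11.3% of all genes. Base composition lay closer to that of all genes. The median GC content of the 300-base promoters was 59.3% in members and 62.7% in all genes, and the median number of CpG dinucleotides was 23 and 22.

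Short motifs were searched on both strands over the whole 300 bases, and matches of different motifs may overlap. CCGGAAG, a core bound by ETS factors, was in 21 of 63 members (33.3%) and in 14.2% of all promoters. CTCGCGA, part of a palindromic element found in promoters of housekeeping genes, was in 12 members (19%) and in 3.26% of all promoters. AAGATGG, the core bound by YY1, was in 9 members (14.3%) and in 6.4% of all promoters. The general promoter elements were no more frequent in members than elsewhere. TATAAA was in 7.94% of members against 9.63% of all promoters, GGGCGG, the GC box bound by SP1, in 55.6% against 58.5%, and CCAAT in 33.3% against 36.4%. GCATGCG, part of the NRF1 motif, was in 7.94% against 5.14%, and CACGTG, the E box, in 4.76% against 8.88%. A match is a string of letters and not a bound site.

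The second set of stretches shows members that differed in their listing under shMETTL3. RPL27A, RPS14 and RPL26 carry the ETS string. In untreated shMETTL3, RPS14 had an interval near its start in both lines and RPL26 in LOVO only, whereas RPL27A was listed in both lines through its far end and had no interval near its start in either. RPL24, RPL35A and RPS15 were listed in neither line. Each runs from 80 bases before the start to 20 bases from the start on, with motif matches in capitals.
RPL27A, chr11:8682712-8682811, plus strand: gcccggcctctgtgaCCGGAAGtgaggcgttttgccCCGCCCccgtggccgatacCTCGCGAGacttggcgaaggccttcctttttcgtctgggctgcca
RPS14, chr5:150449720-150449819, minus strand: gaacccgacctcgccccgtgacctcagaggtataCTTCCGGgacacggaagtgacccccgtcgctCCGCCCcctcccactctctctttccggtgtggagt
RPL26, chr17:8383174-8383273, minus strand: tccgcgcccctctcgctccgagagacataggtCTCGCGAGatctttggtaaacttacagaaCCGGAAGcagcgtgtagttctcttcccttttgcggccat
RPL24, chr3:101686699-101686798, minus strand: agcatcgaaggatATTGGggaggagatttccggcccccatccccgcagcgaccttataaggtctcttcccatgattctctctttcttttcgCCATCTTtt
RPL35A, chr3:197950110-197950209, plus strand: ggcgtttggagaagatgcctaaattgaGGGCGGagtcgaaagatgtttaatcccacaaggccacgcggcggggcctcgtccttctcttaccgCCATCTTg
RPS15, chr19:1438316-1438415, plus strand: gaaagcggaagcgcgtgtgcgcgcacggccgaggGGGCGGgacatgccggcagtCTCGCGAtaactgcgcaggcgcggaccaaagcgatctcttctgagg
RPL24 and RPL35A, proteins of the large subunit, share the YY1 string a few bases after the start, as its reverse complement. RPS15, a protein near the decoding site, has a CTCGCGA match and a GC box.

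The share of ribosomal protein genes listed lay above that of all protein-coding genes in every list, counting intervals of any score. In LOVO, the count of listed members was 78 of 78 in shMETTL3 with olaparib (100%; 95% exact interval 95.4 to 100%), against 58.5% of all genes. It was 72 in shControl with olaparib (92.3%; 84 to 97.1%), against 53.2% of all genes. It was 49 in untreated shMETTL3 (62.8%; 51.1 to 73.5%), against 35.8% of all genes. In untreated shControl, 64 members (82.1%; 71.7 to 89.8%) were in the merged list and 73 (93.6%; 85.7 to 97.9%) in the scored list, against 51.5% and 55.8% of all genes. The intervals are Clopper-Pearson intervals and cover counting error only.

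Members lay above all genes in RKO too. The count was 75 in shMETTL3 with olaparib (96.2%; 89.2 to 99.2%), against 55.4% of all genes. It was 68 in shControl with olaparib (87.2%; 77.7 to 93.7%), against 52.3%. Untreated shMETTL3 had the lowest share of any list, 30 of 78 (38.5%; 27.7 to 50.2%), against 25.3% of all genes, the smallest distance between members and genome. Untreated shControl had 73 (93.6%; 85.7 to 97.9%) in the merged list and 62 (79.5%; 68.8 to 87.8%) in the scored list, against 54.9% and 47.6%.

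**Figure D1:**
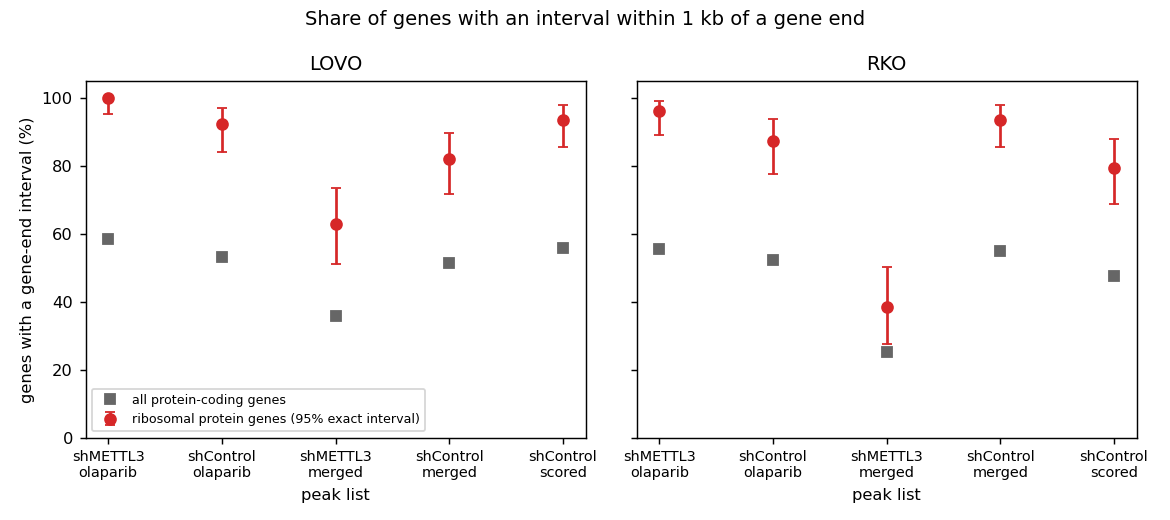
Share of genes with an interval within 1 kb of a gene end, in percent, for each of the 5 peak lists of LOVO (left) and RKO (right). Red points are the 78 ribosomal protein genes with 95% exact binomial intervals and grey squares all 20037 protein-coding genes; the red points lie above the grey squares in all lists and are lowest in untreated shMETTL3, at 62.8% in LOVO and 38.5% in RKO.

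No member was missing from all lists, whereas 35.4% of all genes were. All 10 lists held 25 members (32.1%), against 20.1% of all genes. The 5 LOVO lists all held 47 members (60.3%), against 35.0% of all genes, and the 5 RKO lists 28 members (35.9%), against 24.3%. These shares of all genes include the genes in no list, and shares over the genes present in some list were not computed. The higher share of members did not go with longer intervals. The median number of covered bases at listed members and at listed genes was 577.5 and 573 bp in LOVO shMETTL3 with olaparib, and 531 and 527 bp in LOVO scored untreated shControl. It was 237 and 288 bp in RKO untreated shMETTL3, and 870 and 910 bp in RKO merged untreated shControl.

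The members with fewest listings were mostly proteins of the large subunit. RPL38, a small protein known in mouse for its part in translating Hox transcripts, was in 2 lists, with 376 bp in LOVO shMETTL3 with olaparib and 161 bp in RKO shMETTL3 with olaparib. The 2 intervals were at different ends of the gene, chr17:74203505-74203880 across the start and chr17:74210975-74211135 past the far end. RPL19, RPL32 and RPS23 were in 3 lists each. RPL19, which forms a bridge between the subunits, had 180 bp in LOVO shMETTL3 with olaparib, and 394 and 291 bp in RKO shMETTL3 with olaparib and shControl with olaparib. RPS23, a protein of the decoding centre, had 315 bp in LOVO shMETTL3 with olaparib, 201 bp in LOVO scored untreated shControl and 537 bp in RKO merged untreated shControl. RPL8, RPL14, RPL29, RPL36 and RPS27 were among those in 5 lists.

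The intervals of RPL36 lay at different gene ends in the 2 lines. In LOVO they crossed the start, from -86 to 224 bp in shMETTL3 with olaparib and from -177 to 191 bp in shControl with olaparib. In RKO no list had an interval near the start, so the intervals lay at the far end. Its window also holds an end of LONP1, the gene of a mitochondrial protease, and the part of this neighbour was not tested. Covered bases were 311 bp in LOVO shMETTL3 with olaparib and 369 bp in LOVO shControl with olaparib, and 0 bp in the other 3 LOVO lists. In RKO they were 1953 bp in shMETTL3 with olaparib, 1633 bp in shControl with olaparib and 898 bp in scored untreated shControl, and 0 bp in both merged lists. The 2 forms of the untreated shControl list therefore disagreed on this gene in RKO.

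**Figure D2:**
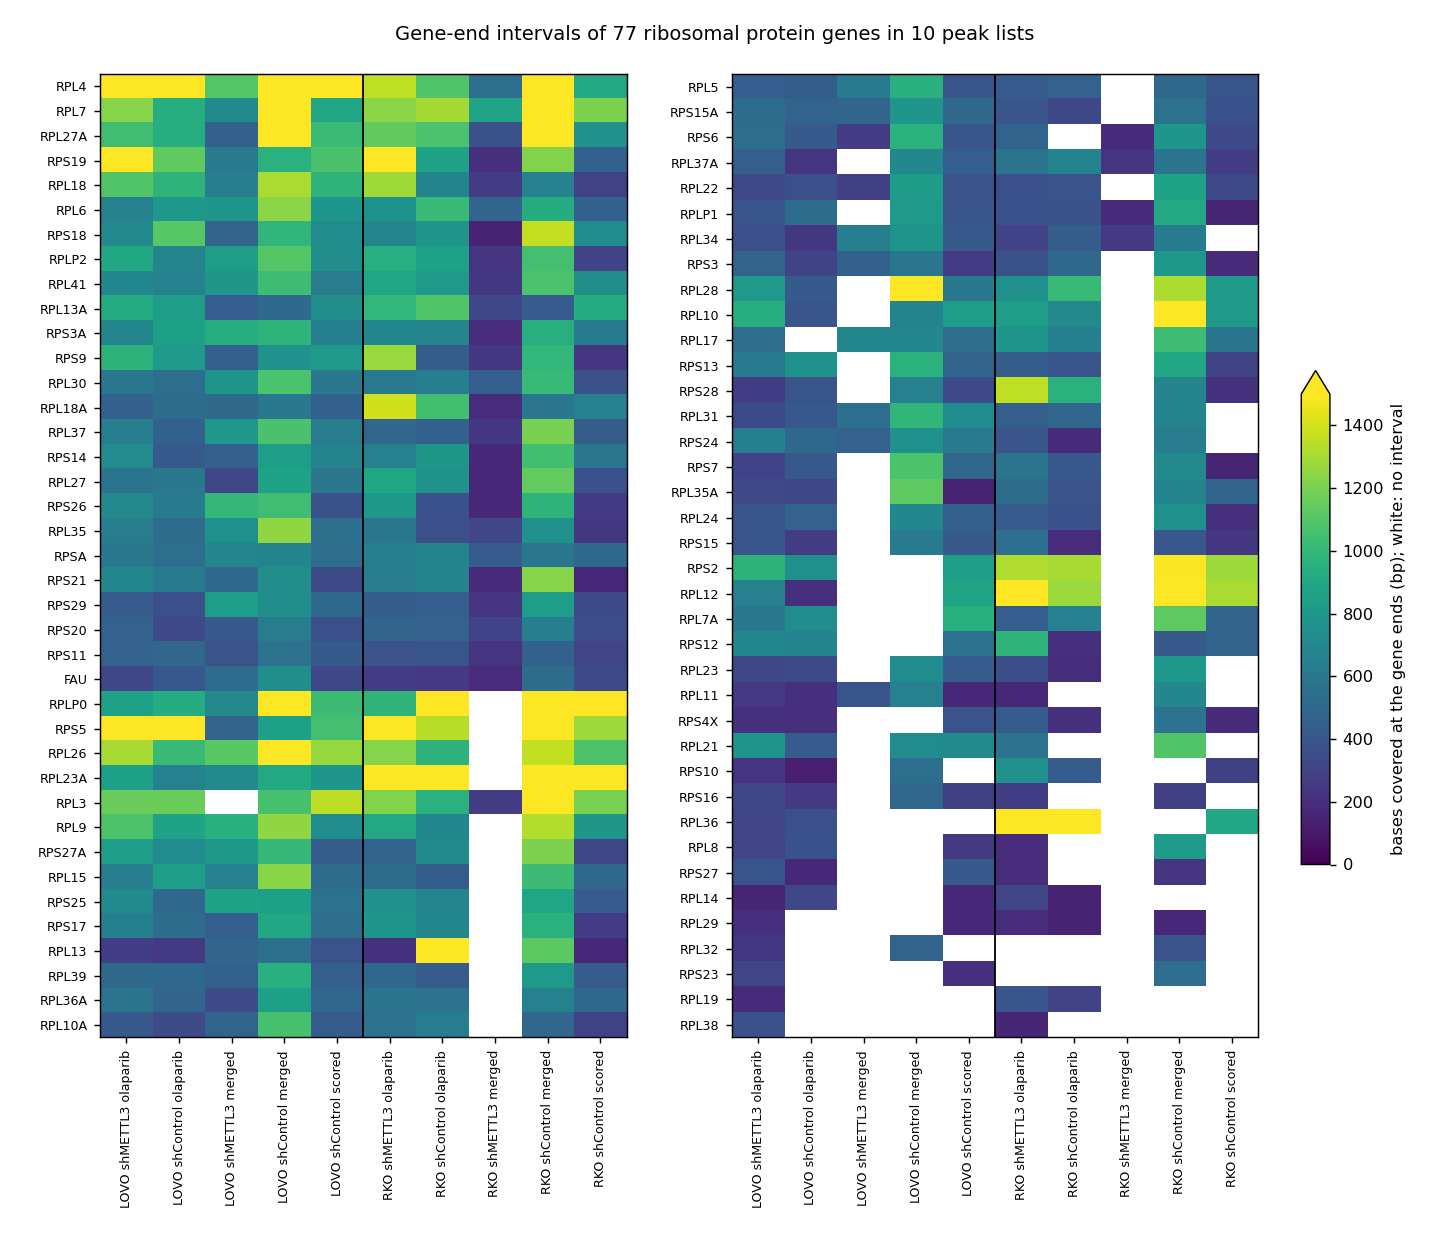
Bases covered by intervals at the gene ends (colour, in bp; values above the top of the scale share its colour) for 77 of the 78 ribosomal protein genes (rows) in the 10 peak lists (columns; LOVO left of the line and RKO right of it in each panel). White cells have no interval; the RKO untreated shMETTL3 column holds the most white cells and the LOVO shMETTL3 olaparib column none.

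Genes chosen for their roles varied among themselves. The stalk proteins RPLP0, RPLP1 and RPLP2 recruit the elongation factors to the ribosome. RPLP2 was in all lists, with 901 bp in LOVO shMETTL3 with olaparib, 685 bp in LOVO shControl with olaparib, 843 bp in LOVO untreated shMETTL3, and 1105 and 742 bp in LOVO untreated shControl (merged and scored). In RKO the values of RPLP2 were 944, 858, 229, 1059 and 305 bp in the same order of groups. RPLP0 was in all lists but RKO untreated shMETTL3, and RPLP1 in all but LOVO untreated shMETTL3. RPLP0 had its widest RKO interval beyond the far end of the gene, at chr12:120194674-120196198 in shControl with olaparib, whereas the widest interval of LOVO shControl with olaparib was at its start, at chr12:120201030-120201593.

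The genes of the fusion proteins were listed nearly everywhere. FAU, which encodes a ubiquitin-like protein joined to a small subunit protein, was in all 10 lists at 192 to 746 bp, its window shared with MRPL49, a mitochondrial ribosomal protein gene. RPS27A, which encodes ubiquitin joined to a small subunit protein, was in 9 lists at 326 to 1206 bp and missing from RKO untreated shMETTL3. RPSA, the laminin receptor precursor and a small subunit protein, was in all 10 lists at 434 to 681 bp, the narrowest range of these 3 genes. Of the MDM2-binding proteins, RPL5 was missing from RKO untreated shMETTL3 alone and RPL11 from 3 RKO lists. RPL22 and RPS3 were missing from RKO untreated shMETTL3 alone. RPS6, the substrate of S6 kinase, was missing only from RKO shControl with olaparib, and RPL13A, part of an interferon-controlled translational complex, was in all 10 lists.

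Scores placed the members in the lower ranks of listed genes. For each gene the highest score of its gene-end intervals was ranked among all listed protein-coding genes of the same list. The score is the authors' own value and which quantity it is was not stated, so that it is read within a list only. The median percentile of the members was 37.1, 41.7 and 43.5 in LOVO shMETTL3 with olaparib, shControl with olaparib and scored untreated shControl. It was 22.5, 20.9 and 33.3 in the same groups of RKO. In RKO shMETTL3 with olaparib the median score was 6.78 for members and 9.19 for all listed genes. All 6 medians were thus under the middle rank of 50, further so in RKO. In the same order of groups, 31 of 78, 28 of 72 and 32 of 73 listed members ranked above 50 in LOVO. In RKO it was 19 of 75, 21 of 68 and 20 of 62.

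**Figure D3:**
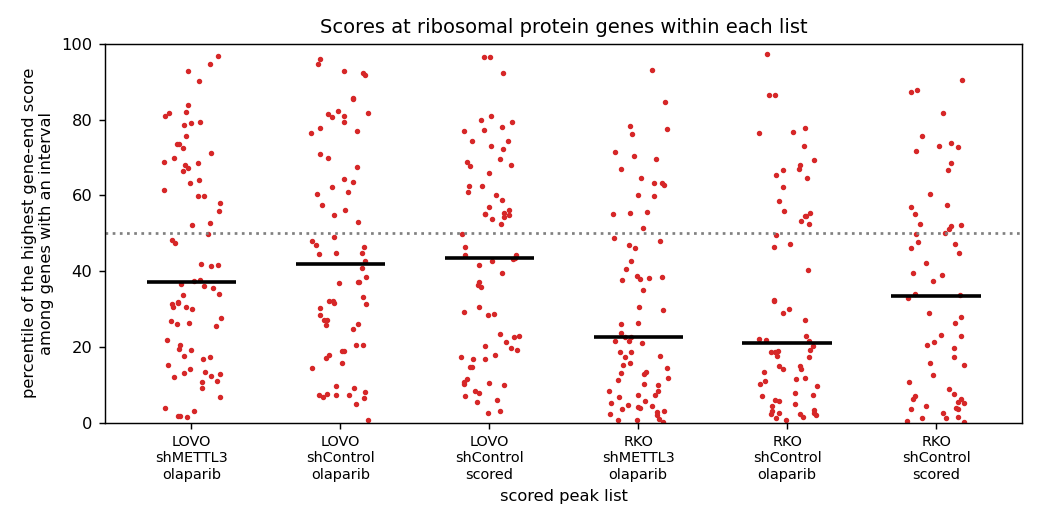
Percentile of the highest gene-end score of each listed ribosomal protein gene (points) among all listed protein-coding genes of the same list, for the 6 scored lists. Bars are medians, from 20.9 in RKO shControl with olaparib to 43.5 in LOVO untreated shControl, all under the dotted line at the middle rank.

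RPL37 had the highest median percentile, 82.7, followed by RPL26 at 81.7, RPL27 at 80.9, and RPS3A and RPL17 at 78.3. RPL37 ranked at 96.8, 80.8 and 96.6 in LOVO shMETTL3 with olaparib, shControl with olaparib and scored untreated shControl, and at 84.6, 76.7 and 73.1 in RKO. At the other end stood RPL32 at 1.5, RPS12 at 1.62, RPL38 at 3.73, RPL19 at 3.94 and RPL12 at 4.01. RPS12 was in all 6 scored lists and never ranked above 7.47, although it covered 699 bp in LOVO shMETTL3 with olaparib. RPL17 ranked at 79.1 and 79.8 in LOVO shMETTL3 with olaparib and in LOVO scored untreated shControl, yet was missing from LOVO shControl with olaparib. RPL17 had no interval near its annotated start in any list, so its ranks and its changes between lists rest on its far end.

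The median downstream edge of intervals at the start of these genes lay nearer the start than that of all genes in all 10 lists, and in RKO more of the intervals also lay wholly upstream of it. The position of the interval nearest the start was read for the 53 members with 1 annotated start, and for all protein-coding genes with 1 start. In RKO shMETTL3 with olaparib, 17 of 45 such intervals lay wholly upstream of the start (37.8%; 95% exact interval 23.8 to 53.5%), against 12.5% of all genes. In RKO shControl with olaparib it was 16 of 38 (42.1%; 26.3 to 59.2%), against 13.2%, and in RKO scored untreated shControl 16 of 31 (51.6%; 33.1 to 69.8%), against 18.1%. The median downstream edge in the 3 lists lay 31 bp and 29.5 bp after the start and 10 bp before it, against 190, 231 and 168 bp after it for all genes.

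In LOVO the median downstream edge lay 172 bp after the start in shMETTL3 with olaparib, 62 bp in shControl with olaparib and 61.5 bp in scored untreated shControl, against 193, 192 and 165 bp for all genes. In the merged lists of LOVO it lay 115 bp after the start in untreated shMETTL3 and 272 bp in untreated shControl, against 254 and 430 bp for all genes. In those of RKO it lay 11 bp before the start in untreated shMETTL3 and 240 bp after it in untreated shControl, against 45 and 390 bp after it for all genes.

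The share of intervals wholly upstream was less uniform in LOVO. The share wholly upstream was 13 of 48 in shControl with olaparib (27.1%; 15.3 to 41.8%), against 11.1% of all genes. It was 1 of 51 in shMETTL3 with olaparib (1.96%; 0.0496 to 10.4%), against 8.62%, and 5 of 48 in scored untreated shControl (10.4%; 3.47 to 22.7%), against 11.5%. In the merged lists it was 1 of 27 for LOVO untreated shMETTL3 (3.7%, against 6.88%) and 1 of 41 for LOVO untreated shControl (2.44%, against 3.12%). In RKO merged lists it was 8 of 14 in untreated shMETTL3 (57.1%, against 33.6%) and 6 of 47 in untreated shControl (12.8%, against 6.15%). Members therefore exceeded all genes in all 5 RKO lists and in 1 of 5 LOVO lists. In 5 of the 6 scored lists a smaller share of members with more than 16 pseudogenes than of members with at most 16 had an interval over the start, with 6 of 15 and 15 of 23 in RKO shControl with olaparib and 16 of 21 and 26 of 27 in LOVO scored untreated shControl. RKO scored untreated shControl, with 6 of 12 and 9 of 19, and the 4 merged lists ran the other way. The part of reads shared with pseudogenes in these positions was not tested.

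**Figure D4:**
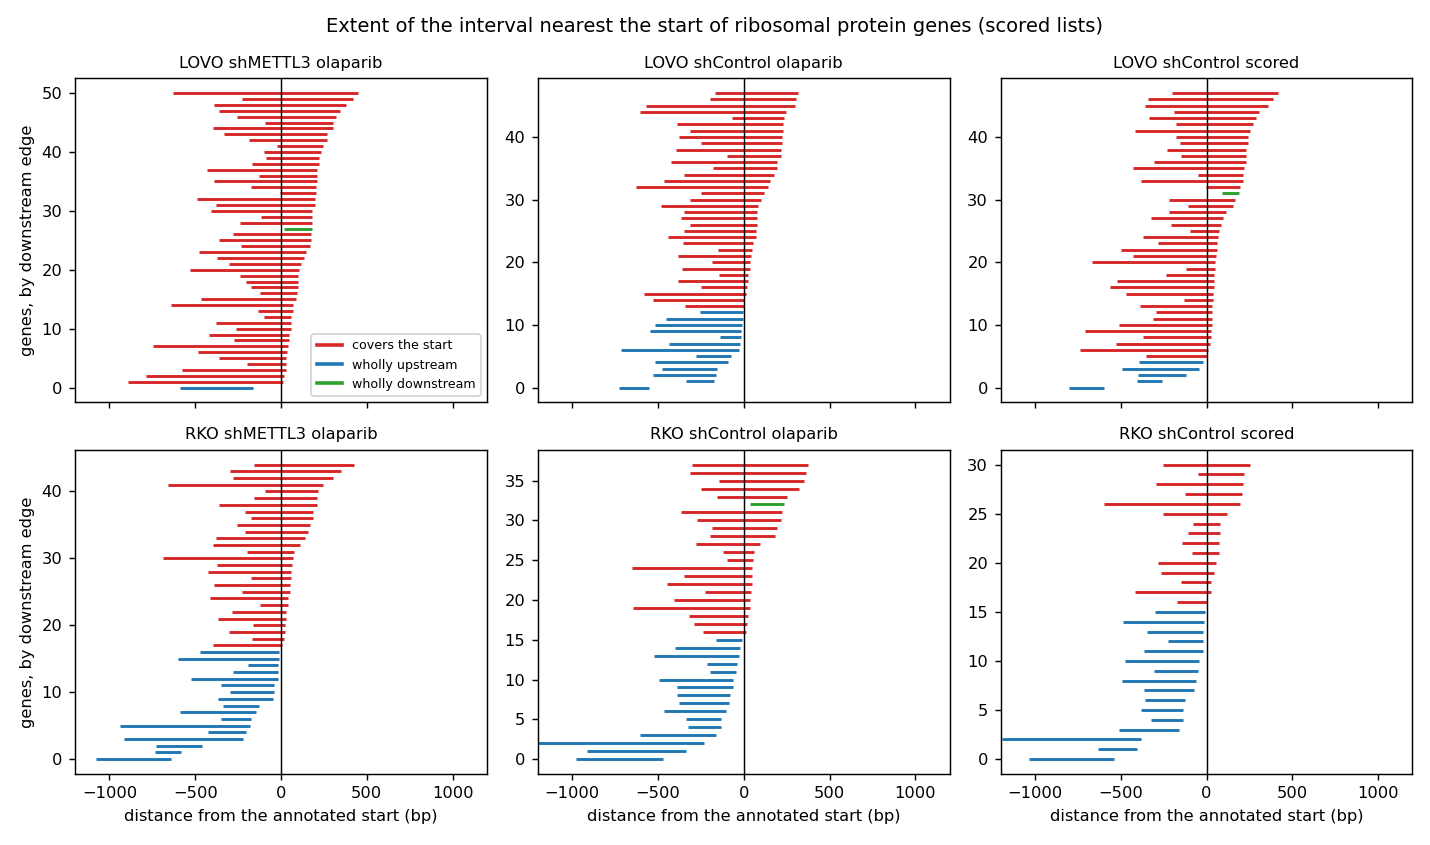
Extent of the interval nearest the annotated start (vertical line), in bp from the start, for ribosomal protein genes with 1 annotated start, in the 6 scored lists; lines are genes in order of their downstream edge, and lines that pass the axis are cut there. Blue intervals lie wholly upstream of the start, 17 of 45 in RKO shMETTL3 with olaparib but 1 of 51 in LOVO shMETTL3 with olaparib.

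The comparison of untreated shMETTL3 with untreated shControl asks how ribosomal protein genes fared when METTL3 was targeted. Members went missing, and those kept became narrower, to about the same degree as all genes. In LOVO, 16 of the 64 members listed in shControl were not listed in shMETTL3 (25%; 95% exact interval 15 to 37.4%), against 31.2% of all genes, and 1 of 14 was gained (0.813% of all genes, and 2.94% of genes present in some other list). In RKO, 43 of 73 were not listed in shMETTL3 (58.9%; 46.8 to 70.3%), against 54.1% of all genes, and 0 of 5 were gained (0.321% of all genes, and 1.03% of genes present in some other list). The shares of members lost lay near those of all genes in both lines. Among the members kept, the median ratio of covered bases, shMETTL3 over shControl, was 0.641 in LOVO and 0.255 in RKO, against 0.678 and 0.308 for all genes. At most 1/2 of the bases were covered in 12 of 48 members kept in LOVO (25%, against 23.2%) and in 27 of 30 in RKO (90%, against 83.4%). In neither line did a member cover at least 2 times the bases, beside 0.0282% of all genes in LOVO and 0.0198% in RKO.

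The untreated shMETTL3 lists were also the shortest of each line, at 16417 intervals in LOVO and 6916 in RKO, against 33474 and 27978 in merged untreated shControl. When the longer list was limited to its widest intervals, as many as the shorter one held, 22 of 40 members were lost and 12 of 38 gained in RKO. Against the scored untreated shControl list, the median ratio was 1.1 in LOVO, the opposite direction, and 0.643 in RKO. The part of list length in these losses was otherwise not tested. The 2 untreated shControl lists differed as well, with 2 of 64 members of the merged list missing from the scored one in LOVO (3.12%, against 3.09% of all genes) and 13 of 73 in RKO (17.8%, against 14.4%).

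Large and small subunit genes were lost in similar shares, 10 of 38 and 6 of 26 in LOVO and 25 of 42 and 18 of 31 in RKO. In both lines 12 of 63 members were lost (20.7% of all genes): RPL10, RPL21, RPL23, RPL24, RPL28, RPL32, RPL35A, RPS7, RPS13, RPS15, RPS16 and RPS28. RPL10, which joins the large subunit last and completes the catalytic centre, had 0 bp in LOVO untreated shMETTL3 against 679 bp in merged shControl, and 0 bp in RKO untreated shMETTL3 against 1772 bp in merged shControl. RPL28 had 0 bp against 1920 bp in LOVO and 0 bp against 1315 bp in RKO. Wide intervals were thus among those lost. RPL23 and RPS7, both known to bind MDM2, had 728 and 1075 bp in LOVO merged shControl and none in LOVO untreated shMETTL3.

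Both lines kept 27 of 63 members (43.6% of all genes). RPL7 had the widest coverage of these in RKO untreated shMETTL3, with 875 bp against 1750 bp in merged shControl. By the smaller change of the 2 lines, the largest ratios, LOVO then RKO, were those of RPS29 (1.12 and 0.267), RPSA (1.01 and 0.741), RPS26 (0.961 and 0.171), RPS3A (0.957 and 0.2) and RPL13A (0.87 and 0.746). RPL13A did not keep the same interval in RKO: shMETTL3 had 326 bp past the far end of the gene, at chr19:49492670-49492995, whereas shControl had 437 bp across the start, at chr19:49487233-49487669. RPSA had an interval near its start in both groups of both lines. The smallest were those of RPL27A (0.224 and 0.215), RPS6 (0.28 and 0.225), RPL27 (0.377 and 0.151), RPL4 (0.456 and 0.336) and RPL18 (0.491 and 0.403). RPL27A had 463 bp in LOVO untreated shMETTL3 against 2069 bp in merged shControl, and 373 bp in RKO untreated shMETTL3 against 1732 bp. What remained was an interval near the far end of the gene, next to TRIM66, at chr11:8688717-8689179 in LOVO and chr11:8688768-8689140 in RKO, and none near the start.

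Of the 63 members with a promoter sequence, 11 were lost in both lines and 21 kept in both. The ETS string was in 1 of the 11 lost (9.09%) and 10 of the 21 kept (47.6%), and the YY1 string in 5 of the 11 (45.5%) and 2 of the 21 (9.52%). The pyrimidine start was in 6 of 11 (54.5%) and 16 of 21 (76.2%), and the median GC content was 60.7% and 60.3%. These are counts in few genes, 8 motifs were searched, and none was tested. The same shares over all genes lost or kept in both lines were not computed, so a difference particular to members is not shown. Members were counted as kept through either gene end. Of the 10 kept with the ETS string, RPL13A, RPL27A and RPS18 had no interval near the start in RKO untreated shMETTL3, RPL27A had none in LOVO untreated shMETTL3 either, and RPL34, with several annotated starts, was not read for position.

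**Figure D5:**
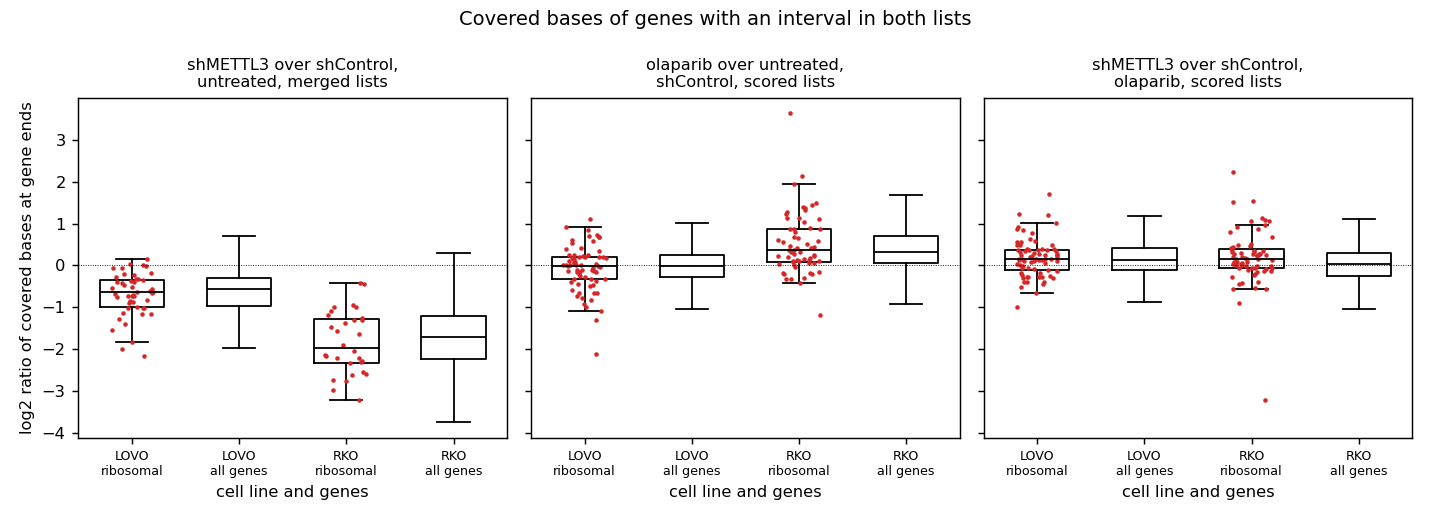
log2 ratio of covered bases at the gene ends for genes with an interval in both lists: shMETTL3 over shControl untreated (left), olaparib over untreated in shControl (middle), shMETTL3 over shControl under olaparib (right). Red points are ribosomal protein genes and boxes the median and quartiles of members and of all genes; only the left panel has medians well under 0, at ratios of 0.641 (LOVO) and 0.255 (RKO) for members.

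Olaparib in shControl cells was set against untreated shControl in the scored lists. The labels give no batch for the olaparib samples, and which untreated list holds the second batch is not given. Drug and batch therefore cannot be told apart here, and the same holds for hairpin and batch in untreated shMETTL3 above. In LOVO little moved, with 3 of 73 members lost (4.11%, against 7.47% of all genes), namely RPL17, RPL29 and RPS23, and 2 of 5 gained, RPS10 and RPL36 (3.49% of all genes, and 16.4% of genes present in some other list). The median ratio of covered bases, olaparib over untreated, was 0.987 in members and 0.984 in all genes, with 4 of 70 members at 1/2 or less (5.71%, against 3.55%) and 1 at 2 times or more (1.43%, against 3.02%). With windows of 500 bp the ratio in members was 1.01, so it has no stable direction. In RKO 1 of 62 was lost, RPS6 (1.61%, against 2.36% of all genes), and 7 of 16 were gained (43.8%), namely RPL14, RPL19, RPL23, RPL29, RPL31, RPL34 and RPS24. Genes present in some other list gained an interval in 33.7% of cases and all genes in 11.1%. With lists of equal number 3 of 16 members were gained and 2 lost, and against the merged untreated list 4 of 5 were gained and 9 of 73 lost. The median ratio was 1.29 in members and 1.24 in all genes, and 14 of 61 members covered at least 2 times the bases (23%, against 14.1%) and 1 at most 1/2 (1.64%, against 0.773%). RKO olaparib and untreated lists held 25855 and 21210 intervals.

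No member was lost in both lines (0.346% of all genes) or gained in both (0.665%). By the smaller change of the 2 lines, the largest ratios were those of RPS21 (1.79 in LOVO and 3.86 in RKO), RPS27A (1.64 and 2.21) and RPS26 (1.65 and 1.47). RPS21, a small subunit protein, covered 615 bp in LOVO shControl with olaparib against 343 bp in scored untreated shControl, and 668 bp against 173 bp in RKO. RPL10 (0.474 and 0.868) and RPS15 (0.639 and 0.809) were among the smallest ratios. Against the merged untreated list in place of the scored one, the median ratio in RKO was 0.66, so its direction rests on the form of list compared.

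Under olaparib, no member listed in shControl was missing from shMETTL3 in either line. In LOVO 0 of 72 members were lost (1.5% of all genes), and all 6 members missing from shControl with olaparib, RPL17, RPL19, RPL29, RPL32, RPL38 and RPS23, were present in shMETTL3 with olaparib. An interval was gained by 12.9% of all genes, and by 48.2% of genes present in some other list. In RKO 0 of 68 were lost (1.79% of all genes) and 7 of 10 were gained, namely RPL8, RPL11, RPL21, RPL38, RPS6, RPS16 and RPS27 (8.38% of all genes, and 29.3% of genes present in some other list). RPL32 and RPS23 were among those that stayed missing in RKO. An exact interval for 0 of 72 reaches 4.99% and for 0 of 68 reaches 5.28%, so that a loss at the share of all genes was not detectable.

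RPL38 was the only member gained in both lines (1.97% of all genes), through its start in LOVO and its far end in RKO. The median ratio of covered bases, shMETTL3 over shControl under olaparib, was 1.12 in both lines, against 1.09 in LOVO and 1.02 in RKO for all genes. At least 2 times the bases were covered in 4 of 72 members in LOVO (5.56%, against 6.53%) and in 7 of 68 in RKO (10.3%, against 4.82%), and at most 1/2 in 0 (1.53% of all genes) and 1 (1.47%, against 2.8%). RPS15 covered 395 bp in LOVO shMETTL3 with olaparib against 267 bp in shControl with olaparib, and 546 bp against 190 bp in RKO. RPS19, a small subunit protein mutated in Diamond-Blackfan anaemia, covered 1499 against 1133 bp in LOVO and 1695 against 865 bp in RKO. RPL6 (0.824 in LOVO and 0.757 in RKO), RPL7A (0.828 and 0.677) and RPLP0 (0.928 and 0.534) were lower in both lines over both gene ends together. At the start alone, the RPLP0 interval in RKO was longer in shMETTL3, from -427 to 58 bp against -293 to 16 bp. The RPL7A interval in LOVO was longer too, from -577 to 29 bp against -547 to -15 bp. In shMETTL3 the start interval of RPLP0 was shorter in LOVO and that of RPL7A was absent in RKO. The shMETTL3 lists were again of another length, now longer, with 51462 against 32192 intervals in LOVO and 35455 against 25855 in RKO. Limited to equal numbers of intervals, the counts were 3 lost and 3 gained in LOVO, and 1 lost and 4 gained in RKO.

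Olaparib in shMETTL3 cells could be read only across forms of list, scored over merged. All 29 members missing from LOVO untreated shMETTL3 were present in shMETTL3 with olaparib (35.4% of all genes, and 78.2% of genes present in some other list). In RKO it was 45 of 48 (40.4% of all genes, and 76.5%). Of the 26 members missing from untreated shMETTL3 in both lines, 24 were present with olaparib in both (22.2% of all genes). Losses were near 0 in members and in all genes alike. They were 0 of 49 members in LOVO (0.279% of all genes) and 0 of 30 in RKO (0.394%). The same change of form in untreated shControl gained 11 of 14 members in LOVO (12.2% of all genes, and 43.7% of genes present in some other list). In RKO it gained 2 of 5 (1.5% of all genes, and 6.36%), so form and treatment cannot be told apart here.

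Related genes outside the rule give a setting for these counts, with no test of any difference. Of all genes listed in merged shControl, 31.2% were lost in untreated shMETTL3 in LOVO and 54.1% in RKO. Of 16 translation factors and other genes with pyrimidine-start transcripts, 0 of 12 listed in LOVO merged shControl were lost in untreated shMETTL3, and 5 of 15 in RKO. Of 30 ribosome assembly genes, 8 of 26 were lost in LOVO and 11 of 26 in RKO. Of 9 near relatives of the members, 0 of 6 were lost in LOVO and 2 of 5 in RKO. Under olaparib, shMETTL3 lost 0 genes of any of the 3 groups in either line, against 1.5% of all genes in LOVO and 1.79% in RKO. Groups this small cannot show a loss at such shares.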

How the data were processed

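Libraries were prepared with a commercial ATAC-seq kit, per the labels. MACS2 2.2.7.1, Bowtie2 2.4.2, DiffBind 3.0.15, Trim Galore 0.6.6 and hg38 are named, with no roles, per the submitters' processing notes. Read shifting, read filtering and the pooling of samples were not given in the sources used here. Of the 10 lists of intervals that the authors deposited, 6 have a score per interval, whose meaning is not stated. Which untreated shControl list holds the second batch is not given. Depth is unknown, so precision is given for shares only. There were 0 columns of samples that could not be matched.

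Gene ends came from the RefSeq table. Intervals with at least 1 bp in the 1000 bp either side of a gene end were counted and their lengths summed with Python 3.11.15, numpy 2.4.6 and pandas 2.3.3, and exact 95% intervals of shares were computed with scipy 1.17.1. Figures were drawn with matplotlib 3.10.9. Changes of covered bases were called at 2-fold. Each comparison was set beside all 20037 protein-coding genes and, for gains, beside genes present in at least 1 of the 8 lists not compared, a background added after the data were seen. No p-value was computed, since no list is for a single sample. The counting code was tested on copies of the merged untreated shControl lists in which known intervals were removed and the others shortened by a known ratio.

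Genes were named when missing from a list, when changed the same way in both lines, as the 5 largest and 5 smallest changes or score ranks, or for their roles, and some of the genes so named are not reported here. Further values, among them those of RPL7 and the members shown by sequence, were picked after they were seen. Members, gene lists and motifs were chosen with earlier results of these data known.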

Additional observations from a re-analysis of the deposited data

Results flagged for a closer look

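In 2 cases the lines moved in opposite directions, each read from 1 list per group, so that the difference between the lines was not tested. Under olaparib in shControl cells, RPL29 covered 0 bp in LOVO shControl with olaparib and 170 bp in scored untreated shControl, a difference of -170 bp, and 148 bp and 0 bp in RKO, a difference of 148 bp. In the merged untreated shControl lists it covered 0 bp in LOVO and 166 bp in RKO, so that in each line 1 of the 2 untreated lists held it. The number of listed members differed by -1 in LOVO and by 6 in RKO, olaparib minus untreated, in the scored shControl lists. Both signs turn against the merged untreated shControl lists, with 72 members under olaparib and 64 untreated in LOVO, and 68 under olaparib and 73 untreated in RKO.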

How the results depend on the processing

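Of 204 values recomputed under other settings, 145 kept their direction and stayed within 1.5 times a count reported or within the 95% binomial interval of a median ratio reported. The cause of the changes was not tested beyond what each setting removes. One setting limited each list to its upper 50% (by score, or by width in merged lists), which removes intervals. Listed members were then 49, 41, 32 and 44 in LOVO shMETTL3 with olaparib, shControl with olaparib, untreated shMETTL3 and scored untreated shControl, and 25, 24, 11 and 24 in RKO. The share of all genes listed under this setting was not computed, so members and all genes cannot be compared there. Under it untreated shMETTL3 lost 28 of 58 and gained 2 in LOVO, with a ratio of 0.439 in RKO. Olaparib in shControl lost 7 and gained 4 in LOVO, with a ratio of 1.01, on the other side of 1, and lost 7 in RKO. shMETTL3 under olaparib lost 5 and gained 13 in LOVO and lost 5 in RKO.

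With the other untreated shControl list, shMETTL3 gained 0 in LOVO and 1 in RKO, and its ratios were 1.1 in LOVO, on the other side of 1, and 0.643 in RKO. Olaparib then gained 10 in LOVO with a ratio of 0.587, and lost 9 and gained 4 in RKO with a ratio of 0.66, on the other side of 1. With lists of equal number, shMETTL3 untreated gained 4 in LOVO and lost 22 and gained 12 in RKO, olaparib gained 5 in LOVO and lost 2 and gained 3 in RKO, and shMETTL3 under olaparib lost 3 and gained 3 in LOVO and lost 1 and gained 4 in RKO. When an interval had to be covered over 50% of its length, untreated shMETTL3 lost 25 and 69 in LOVO and RKO, olaparib lost 6 and 3, and shMETTL3 under olaparib lost 1 and 1.

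At listed starts only, over 63 members, RKO held 44, 16 and 36 in shControl with olaparib, untreated shMETTL3 and scored untreated shControl. Untreated shMETTL3 then gained 0 in LOVO, olaparib lost 2 in RKO and shMETTL3 under olaparib lost 1 in RKO. Windows of 500 bp gave a ratio of 1.01 for olaparib in LOVO, on the other side of 1, 3 lost with olaparib in RKO, and 1 lost and 11 gained for shMETTL3 under olaparib in RKO. Windows of 2000 bp gave 1 lost in LOVO and 2 lost in RKO with olaparib. With intervals of at least 200 bp, olaparib gained 4 in LOVO and lost 2 in RKO, and shMETTL3 under olaparib lost 2 in LOVO. Counting the whole gene and 1000 bp either side, a setting chosen after seeing the data, gave 2 lost with olaparib in RKO.

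No paired analysis was possible because each list is for a group and none is for a sample, and for the same reason no replicate was left out. Unknown depth and unequal list lengths limit what a missing interval shows.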

Other observations

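Few of the members' pseudogenes were listed, at shares close to those of all pseudogenes in LOVO and lower than those in RKO, with no test. Of the 1938 pseudogenes, 80 had an interval in LOVO shMETTL3 with olaparib (4.13%, against 4.21% of 15580 pseudogenes), 50 in LOVO shControl with olaparib (2.58%, against 2.47%), 28 in LOVO untreated shMETTL3 (1.44%, against 1.26%), and 69 and 68 in LOVO merged and scored untreated shControl (3.56 and 3.51%, against 3.12 and 3.29%). In RKO it was 42 in shMETTL3 with olaparib (2.17%, against 2.91%), 26 in shControl with olaparib (1.34%, against 1.91%), 5 in untreated shMETTL3 (0.258%, against 0.603%), and 36 and 19 in merged and scored untreated shControl (1.86 and 0.98%, against 2.27 and 1.49%). The parent genes were listed at 38.5 to 100% in the same lists.

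The 29 members that hold small nucleolar RNA genes, which guide the modification of ribosomal RNA, lost intervals in untreated shMETTL3 in 7 of 24 cases in LOVO, and the other members in 9 of 40. In RKO the counts were 17 of 29 and 26 of 44. Members that share their window with another gene end lost 3 of 25 in LOVO and members without such a neighbour 13 of 39, and in RKO the counts were 16 of 28 and 27 of 45. These splits were not tested.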
